A study of Mus musculus with 13 samples.

Results

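Acetylation of histone H3 at lysine 27 (H3K27ac), the mark of active promoters and enhancers, was profiled by ChIP-seq (immunoprecipitation of chromatin followed by sequencing) in mouse C2C12 myoblasts, which fuse into myotubes in low serum. The regions described here are the peaks found in a Myod1 knockout line and nowhere else in the series. The members were chosen by the authors' q-values and by peak positions: a member was a peak of the knockout list with a −log10 q-value of at least 3 that shared no base with any peak of the 11 other lists. There were 1527 members among the 50137 knockout peaks at that q-value and the 55585 knockout peaks deposited. They made up 3.05% of the knockout peaks at that q-value (95% Wilson interval 2.9 to 3.2, counting error only). This share is set by the rule itself and is given as a description.

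All cells were C2C12, edited lines were made with CRISPR/Cas9, and every edited line was profiled 48 h after the switch to differentiation medium (2% horse serum). The Myod1 knockout was made to abolish MyoD expression. The 4 hotspot lines lacked genomic regions that the submitters call hotspots: H1 in one line, H3 in one, H2 and H3 in one (H23), and H3 and H4 in one (H34), the double deletions having been made by removing H3 from a line already deleted for H2 or H4. Unedited (wild-type) cells were profiled at -24, 0, 6, 12, 24, 48 and 72 h, counted from that switch. Each condition had 1 library, so no difference between conditions was tested. The sources used here do not say whether an edited line was 1 clone. The sample labelled as CRISPR control was not analysed here. A property of the edit and a property of the line or the library therefore cannot be told apart. The disruption of Myod1 cannot be checked from acetylation peaks.

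MyoD is a basic helix-loop-helix transcription factor that binds E-box sequences in muscle enhancers and promoters. It recruits the acetyltransferases p300 and PCAF, and it turns on a cascade that includes Myog and the MEF2 factors.

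The members were few beside what the same rule gave in the other deposited lists. By that rule the H1 line held 17637 peaks of its own (15.4% of its peaks at that q-value), the H23 line 17179 (15.5%), the H34 line 15655 (12.9%) and the H3 line 6196 (6.5%). The wild-type library at 48 h held 2354 (3.32%, 3.19 to 3.46). In the lists as deposited, the knockout share was thus the lowest of the 6 libraries at 48 h and next to the wild-type one. The knockout list was also the shortest of the 12, and it covered 18.3 Mb, against 58.4 to 81.5 Mb for the hotspot lines and 45.4 Mb for wild type at 48 h. The part of list length in these shares was not tested beyond the following alternatives. With every list cut to its 55585 strongest peaks and no q-value threshold, so that all shares had the same base, the knockout share was 6.55% (6.35 to 6.76). The other shares were 6.37% in the H3 line (6.17 to 6.58), 6.5% in H34, 9.12% in H1, 10.9% in H23 and 6.92% in wild type at 48 h (6.71 to 7.13). The knockout was then no longer the lowest, and its interval overlapped those of H3, H34 and wild type. With the same cut and a −log10 q-value of at least 3 still required, the knockout share was 5.6% (5.4 to 5.8) of 50137 peaks. That was the lowest of the 6 libraries. The threshold took peaks from the knockout list only, so the other shares were unchanged. The order of the knockout among equal lists thus depended on the threshold. No replicate shows how far such shares vary between libraries of 1 condition.

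**Figure D1:**
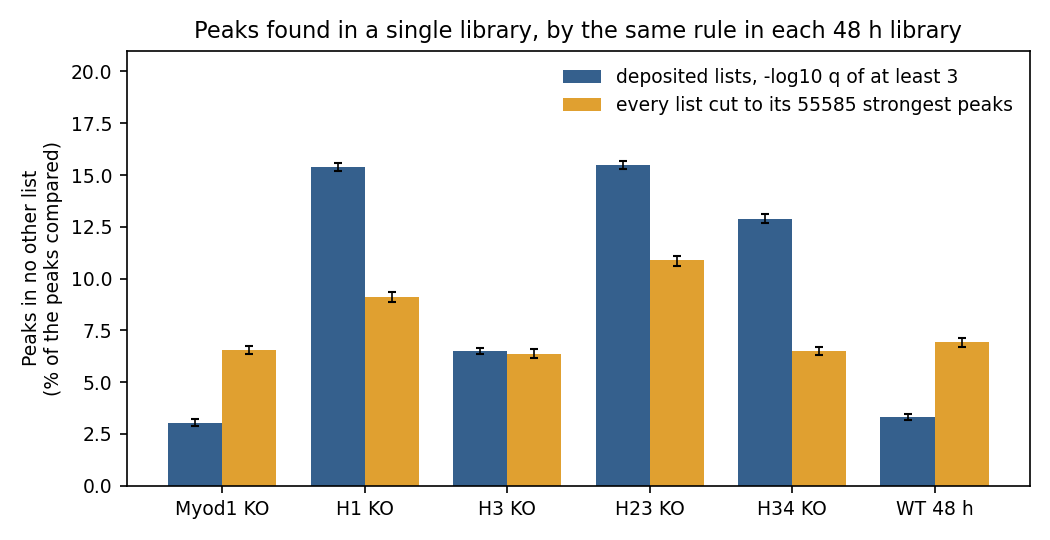
Share of peaks that overlapped no peak in the 11 other lists, for each library at 48 h, over the deposited peaks with a −log10 q-value of at least 3 and over the 55585 strongest peaks of every list with no q-value threshold; error bars are 95% Wilson intervals. The Myod1 knockout stands lowest in the deposited lists, at 3.05%, but with equal lists and no threshold its 6.55% lies among the values of H3, H34 and wild type at 48 h.

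Most knockout peaks had a counterpart elsewhere. Of the 50137, 23594 (47.1%) overlapped a peak in all 11 other lists, and 835 (1.67%) overlapped a peak in exactly 1. The lists of the hotspot lines did most to keep peaks out. The H23 list alone accounted for 287 of those 835, the H1 list for 201, the H34 list for 200 and the H3 list for 49. The wild-type list at 48 h accounted for 20, and the 6 other wild-type lists for 6 to 36 each. The hotspot lists were also the longest, with 103134 to 137960 peaks, against 69251 to 101331 in the wild-type lists. The part of list length in these counts was not tested. When only the wild-type library at 48 h was asked to lack the peak, 11490 knockout peaks qualified, and 4963 did when all 7 wild-type libraries were. The 1527 members are those of the 4963 that all 4 hotspot lines lacked too.

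The members were narrow. Their median width was 135 bp (interquartile range 125 to 164), against 176 bp for knockout peaks that lacked a wild-type peak at 48 h but overlapped a peak in some other list, and 292 bp for knockout peaks with a wild-type peak at 48 h. The narrowest knockout peaks were 125 bp wide, and 600 members (39.3%) had that width, against 9.65% of all knockout peaks at that q-value. Only 87 members were 250 bp or wider. Width bears on the rule, since a wider peak has more bases that can meet another list. The share of members was 12.4% among peaks of 125 bp and 0.0737% among peaks over 500 bp. The widest member lay on chromosome 9 at 99377646 to 99378522 and spanned 877 bp, rank 2480 of the knockout list by width. The next were 694 and 639 bp wide, both on chromosome 11 (106807909 to 106808602, and 106805291 to 106805929). A member of 582 bp spanned 54032734 to 54033315 of chromosome 12, and one of 562 bp spanned 19988809 to 19989370 of chromosome 8. These coordinates, like all others here, are in mm9 and counted from 1.

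The members were also weak within the knockout list, as judged by the authors' own values for each peak. Their median fold enrichment was 5.3 (lowest 2.66, highest 12.96), which stood at percentile 34.9 of the deposited knockout list. Their median −log10 p was 7.24 (5.42 to 24.78), at percentile 34.1. Of the 1527, 261 (17.1%) lay above the knockout median of −log10 p, and 5 (0.327%) lay in its top 10%. The low medians were not particular to the members. The 9963 knockout peaks with no wild-type peak at 48 h but one in another list had the same medians, 5.3 and 7.24. Of these, 26.5% lay above the knockout median of −log10 p and 1.54% in its top 10%. Knockout peaks with a wild-type peak at 48 h had medians of 6.48 and 9.6. Of the knockout peaks with the lowest −log10 p, 5.41 to 6.13, 6.56% were members, and of the 5278 in the top 10%, 0.0947% were. At the q-value threshold, the 100 members just inside had −log10 q of 3.01 to 3.59, and the 100 knockout-only peaks just outside had 2.66 to 2.97. Without the threshold there were 1989 knockout-only peaks, and the 462 below it made up 8.48% of the knockout peaks there. Median width was 134 bp inside and 125 bp outside. These values come from the peak call that the rule used and carry no test.

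The fold values took few levels. Of the 1527 members, 1336 (87.5%) had a fold that was a whole multiple of 0.589 within 0.002 of a step. The 4 commonest values, 4.71, 5.30, 5.89 and 6.48, covered 1233 members (80.7%). These are 8, 9, 10 and 11 steps, held by 513, 399, 234 and 87 members. MACS2 sets the pile of fragments at a summit against a background that is the larger of a genome-wide and a local estimate, so even steps arise where the genome-wide value is used. The 100 knockout-only peaks just outside the threshold had a median fold of 4.12, which is 1 step below the lowest of the 4. Other knockout peaks lay on the steps at a similar share (86.1% of all at that q-value), but they were spread higher up. Those at 11 steps were members in 1.99% of cases, against 6.91% at 8 steps. The steps were not turned into read numbers, and read depth was unknown.

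**Figure D2:**
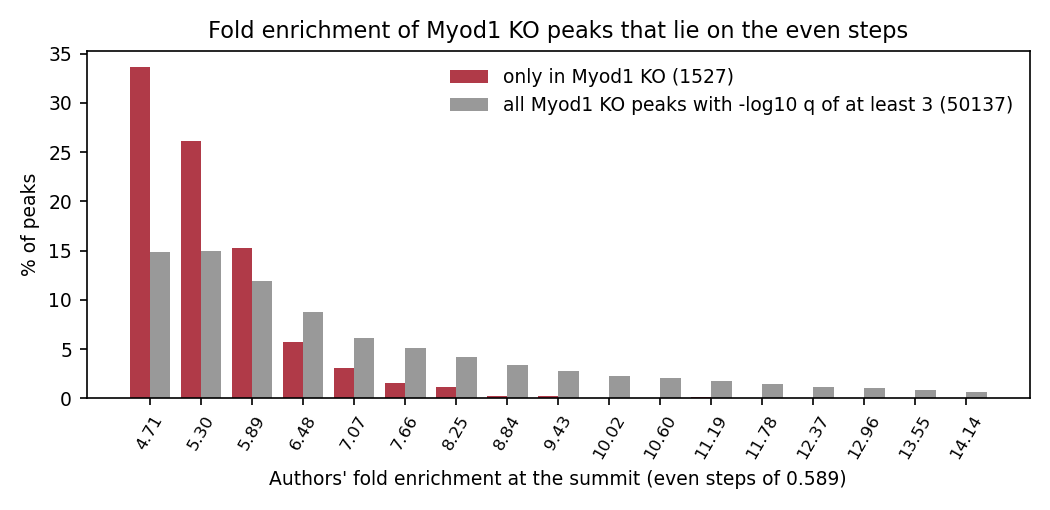
Percent of peaks at each even step of the authors' fold enrichment, for the 1527 members and for all 50137 Myod1 knockout peaks with a −log10 q-value of at least 3; peaks off the steps and above 24 steps are not drawn. The members crowd on the lowest levels, with 33.6% at a fold of 4.71, where 14.8% of all these knockout peaks lie.

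The strongest members had folds up to 12.96. The highest −log10 p was 24.78, on chromosome 4 at 35563930 to 35564103. It ranked 2477 in the knockout list, and its nearest peak in any other list was 64694 bp away, in the H1 line. The second, on chromosome 7 at 10870313 to 10870490, had a −log10 p of 23.28 and was 209571 bp from any other list's peak. The third, spanning 158651162 to 158651328 of chromosome 3, reached 21.80. A pair followed at 20.35, with bases 33410227 to 33410367 of chromosome 13 and bases 11211866 to 11212040 of chromosome 10. The first of that pair was the nearer to wild type, 5594 bp from a 48 h peak, and the second lay 148677 bp away. A member on chromosome 14 (14679141 to 14679361) reached 18.91 and stood 55333 bp from wild type. Another on chromosome 13, spanning 3373438 to 3373580, reached 18.44 and was 525 bp from a peak of the H34 line. The member spanning 88844520 to 88844698 of chromosome 5 reached 17.50. On chromosome 11, bases 3074353 to 3074617 combined a −log10 p of 17.15 with a fold of 4.47, off the even steps. A further 4 members tied at 16.11. They were chromosome 1 bases 105790411 to 105790559, chromosome 3 bases 122673744 to 122674028, and chromosome 2 bases 80910266 to 80910459 and 135814339 to 135814489. These strongest members were 141 to 285 bp wide, and their distances to wild type ran from 3821 to 2137126 bp.

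The members lay farther from wild-type peaks at 48 h than the other knockout peaks without a wild-type peak at that time. The median distance to the nearest wild-type peak at 48 h was 18517 bp (95% order-statistic interval 16080 to 21072), against 634 bp (603 to 667) for the 9963 knockout peaks that had no wild-type peak at 48 h but a peak in another list, which could be a wild-type list of another time. Within 12500 bp of a wild-type peak lay 644 of 1525 members (42.2%, 39.8 to 44.7), against 86.3% (85.6 to 87) of those 9963. The 2 members on chromosome Y are left out, since wild type at 48 h had no peak there. Within 1 kb lay 5.7%, against 58.5%. The rule bears on this gap, since it leaves out every peak that touches any of the 11 lists. The wild-type 48 h library's own peaks gave a like picture in reverse: their median distance to a knockout peak was 20088 bp, and 40.2% lay within 12500 bp. Peaks of the hotspot lines' own were nearer to wild-type peaks, with medians of 3035 bp in H1, 3519 bp in H3, 4381 bp in H34 and 5351 bp in H23.

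**Figure D3:**
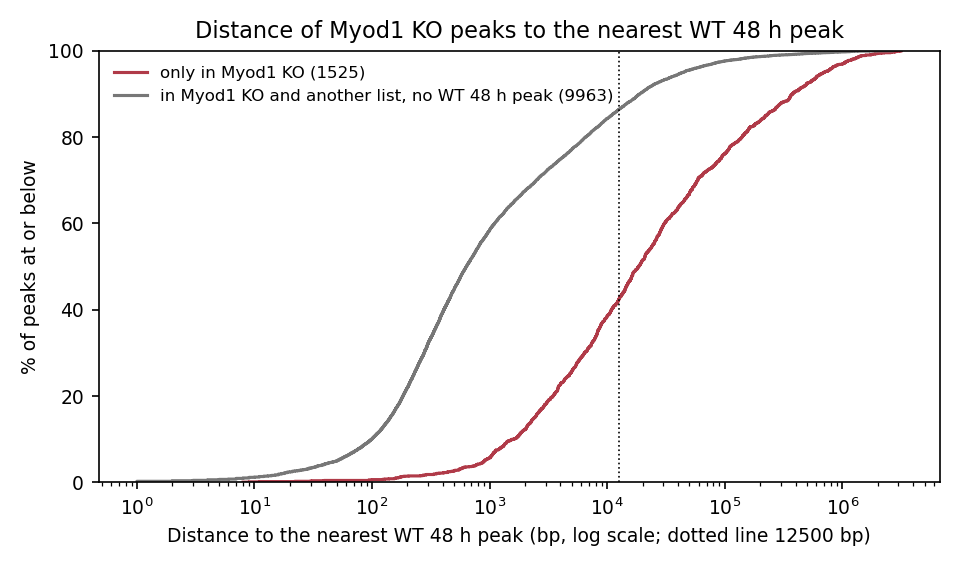
Cumulative percent of Myod1 knockout peaks by their distance to the nearest wild-type peak at 48 h (log scale, in bp), for the members and for the knockout peaks that lacked a wild-type peak at 48 h but had one in another list. At the dotted line of 12500 bp the members have reached 42.2% and the other peaks 86.3%.

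The nearest members to wild type missed an overlap by a few bases. They lay 8, 9 and 11 bp from a wild-type peak, and spanned bases 8292063 to 8292230 of chromosome 17 and, on chromosome 2, bases 17925625 to 17925749 and 62288439 to 62288563. The farthest lay 3184860 bp away on chromosome X at 3580279 to 3580520, 3044019 bp away on chromosome 6 at 77990316 to 77990440, and 2854557 bp away on chromosome 5 at 61146113 to 61146237. Counting all 11 lists, 505 members (33.1%) lay within 1 kb of a peak in another library, of which 148 within 100 bp. For 404 of the 505 the nearest such peak was in a hotspot line. The 4 hotspot lists were also the longest, with 103134 to 137960 peaks, against 69251 to 101331 in the wild-type lists. The part of list length in this count was not tested. At the other end, 251 members (16.4%, 14.7 to 18.4) were over 100 kb from any peak of another list.

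Stronger members lay farther out. Of members with a −log10 p below 7, 49.7% (45.7 to 53.8) were within 12500 bp of a wild-type peak, and their median distance was 12617 bp. The shares were 45% from 7 to 8, 35.1% from 8 to 9, 30.2% from 9 to 12 and 19.4% (12 to 30) at 12 or more, where 72 members had a median distance of 63408 bp. Median width was 127 bp in the weakest class and 160 bp in the strongest. Strength is part of the rule, so this order is a description.

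Within the knockout's own landscape, 793 members (51.9%, 49.4 to 54.4) had no other knockout peak within 12500 bp. Among other knockout peaks at that q-value the share was 10.1%, and among those with no wild-type peak at 48 h but one elsewhere it was 12.8%. A further 580 members (38%) belonged to a stretch of joined knockout peaks in which at least 1 overlapped a wild-type peak at 48 h. The remaining 154 (10.1%) were joined only to knockout peaks that overlapped no wild-type peak at 48 h, in 96 stretches. For 45.7% of members (43.2 to 48.2), the nearest wild-type peak at 48 h overlapped a knockout peak. A wild-type peak counted once for each member it was nearest to, which the interval does not allow for. Of all 71281 wild-type peaks at 48 h, each counted once, 42.5% (42.2 to 42.9) overlapped a knockout peak. For members within 12500 bp of their nearest wild-type peak the share was 50.3% (46.5 to 54.2). For the knockout peaks shared with another list but not with wild type at 48 h, it was 63.9% at any distance, counted in the same way. The wild-type peaks nearest to members, so counted, were a little narrower, at a median of 352 bp, against 420 bp for all wild-type peaks at 48 h.

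Every autosome and both sex chromosomes held members, but unevenly. On chromosome X, 87 of 860 knockout peaks were members (10.1%, 8.27 to 12.3). X thus held 5.7% of the members and 1.72% of the knockout peaks at that q-value, a ratio of 3.32. Chromosome 12 followed with 110 of 2256 (4.88%, 4.06 to 5.84), chromosome 8 with 116 of 2673 (4.34%, 3.63 to 5.18) and chromosome 5 with 140 of 3609 (3.88%, 3.3 to 4.56). On chromosome 8, 39 members lay in 1 window of 351 kb, and on chromosome 5, 30 lay in 1 of 306 kb. Both windows were picked after the values were seen. With members in groups of 5 or more (joined within 12500 bp) left out, the ratio was 1.14 on chromosome 8, against 1.42. It was 1.19 on chromosome 5, against 1.27, 1.62 on chromosome 12, against 1.6, and 2.92 on X. The lowest was chromosome 18, with 24 of 1314 (1.83%, 1.23 to 2.7). Measured along the DNA, chromosome X held 0.534 members per Mb, against 0.592 over all chromosomes and a range of 0.274 (chromosome 18) to 0.937 (chromosome 5). What was low on X was the number of knockout peaks, 5.27 per Mb against 19.5 overall. Members per Mb differed 3.43-fold between the highest and lowest chromosome, and knockout peaks 7.03-fold. The lowest for knockout peaks was X, and the autosomes ran from 11.1 (chromosome 14) to 37.1 (chromosome 11) per Mb. Over 20 chromosomes, the number of members had a Pearson correlation of 0.72 with the number of knockout peaks and 0.56 with chromosome span. The X members were also far from wild-type peaks, at a median of 61610 bp, against 16500 bp for the autosomal ones. Wild-type peaks per Mb of X were not computed, so their part in this distance was not tested. By the same rule, X was above the average of its library in the H1 line (17.6% against 15.4%), H23 (18.1% against 15.5%) and wild type (5.1% against 3.32%), and below it in H34 (8.53% against 12.9%) and H3 (4.86% against 6.5%). Both knockout peaks on chromosome Y were members, at 1120940 to 1121064 and 2652215 to 2652346. The H3 line was the only other library with a peak there. The 2 Y members were 125 and 132 bp wide, with folds of 5.89 and 6.48. Neither the sex of the cell line nor the unique mapping of reads on Y was checked.

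**Figure D4:**
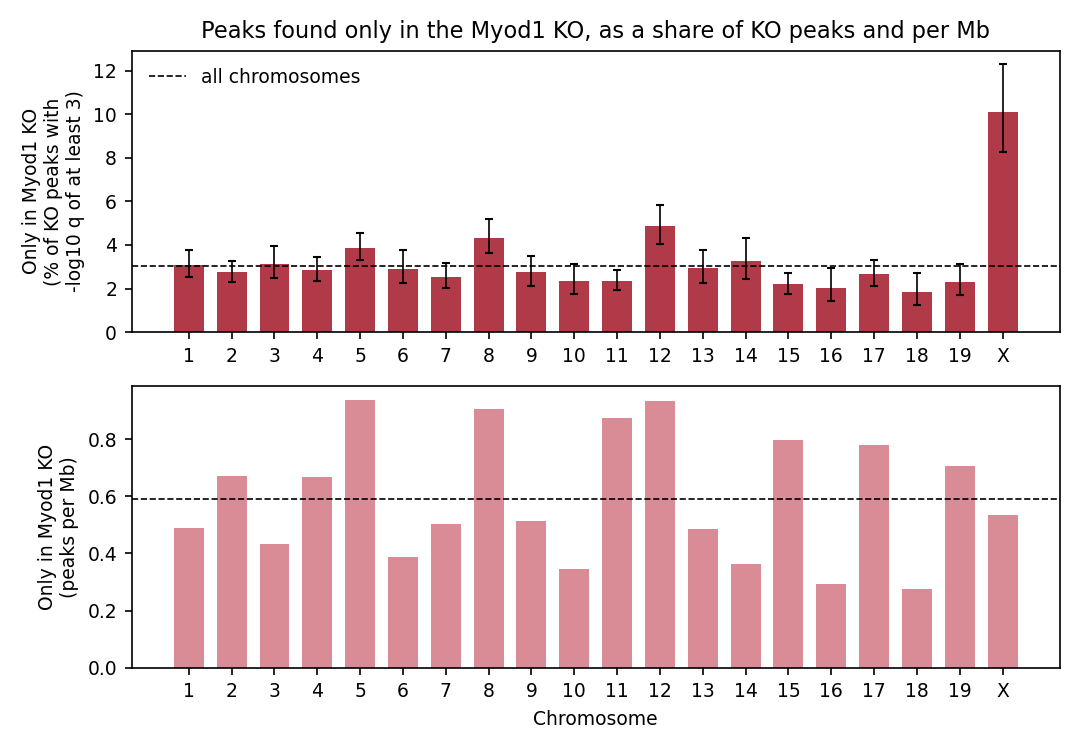
Members by chromosome (Y not drawn), above as a percent of the knockout peaks with a −log10 q-value of at least 3, with 95% Wilson intervals, and below as peaks per Mb of the span between the first and last peak of the 12 lists; dashed lines give the value over all chromosomes. Chromosome X stands out above, at 10.1%, and not below, at 0.534 per Mb.

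Most members stood alone also among themselves. Joined within 12500 bp, the distance used to build stretches of super-enhancers, 1259 (82.4%) had no other member near, and 268 (17.6%, 15.7 to 19.5) fell into 84 groups. The wild-type 48 h library's own peaks were grouped in 26.4% of cases and those of the hotspot lines in 51.6 to 71.6%. The numbers of own peaks had the same order as these shares, and their part in them was not tested. Groups of 5 or more held 111 members (7.27%) in 15 places, against 13.9 to 34.5% of the hotspot lines' own peaks and 0.977% of the wild-type library's. The grouped members were wider, at a median of 175 bp in groups of 5 or more, against 132 bp for lone ones. Of the members in groups of 5 or more, 57.7% lay on the even steps of fold, against 91.5% of lone ones. This gap rested on 6 groups within 1 stretch each of chromosomes 8 and 5, whose 44 members were all off the steps. In the 9 other groups 64 of 67 members lay on the steps (95.5%, 87.6 to 98.5), with a median width of 176 bp, against 91.7% (90.1 to 93.1) of the lone members outside these stretches.

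The largest group held 11 members over 33.4 kb of chromosome 7, at 67003395 to 67036810. The knockout had 19 peaks there, covering 13.3% of the span, and none overlapped a wild-type peak. The nearest wild-type peak at 48 h was 351824 bp away, and the 6 other wild-type lists held no peak in the span. The H34 list had 6 peaks there, H23 had 4, H3 had 1 and H1 had none. The 19 knockout peaks formed the longest run, by number of peaks, of the 12 knockout stretches with at least 5 peaks, a member and no overlap with wild type at 48 h.

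Of the 15 groups, the one most covered by knockout peaks lay on chromosome 11 at 106805291 to 106814336. Its 10 members and 2 knockout peaks below the q-value threshold covered 41.6% of 9.05 kb, with folds of 4.63 to 7.07 and members up to 694 bp wide. In the same span the -24 h and 0 h libraries each had 1 peak, of 148 and 115 covered bases. No other list had any. All 12 libraries had peaks within 40 kb of its centre, 27 in the knockout and 7 to 18 in the others, and the nearest wild-type peak at 48 h was 705 bp from its edge.

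Chromosome X held a pair of large groups near its end. One had 10 members over 38.9 kb at 166578344 to 166617255, with 13 knockout peaks, against 2 in H23, 1 at 12 h and none in the other lists. The other had 6 members at 166501098 to 166511275. The 8 members on chromosome 6 at 114528868 to 114575863 lay among peaks of other lines: the knockout had 20 peaks in these 47 kb, the H1 line 13, H23 10, H34 8, H3 4 and wild type at 48 h 2, whereas the 6 other wild-type lists had none. Those 6 lists also differed in kind from the lists at 48 h, so time and kind of list cannot be told apart.

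The other 3 of the 7 largest groups had no member on the even steps of fold. On chromosome 8 there were 10 members at 19712479 to 19735853, where no other list had a peak, and 8 at 19977560 to 20001075, where 6 other lists had peaks. On chromosome 5 there were 8 at 14906681 to 14934699, with peaks in 5 other lists. All 10 members of the larger X group and all 8 on chromosome 6 lay on the steps. Whether reads map uniquely in any of the groups, on or off the steps, was not tested. Nor was it tested whether they hold repeated sequence, since no mm9 annotation was used here.

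**Figure D5:**
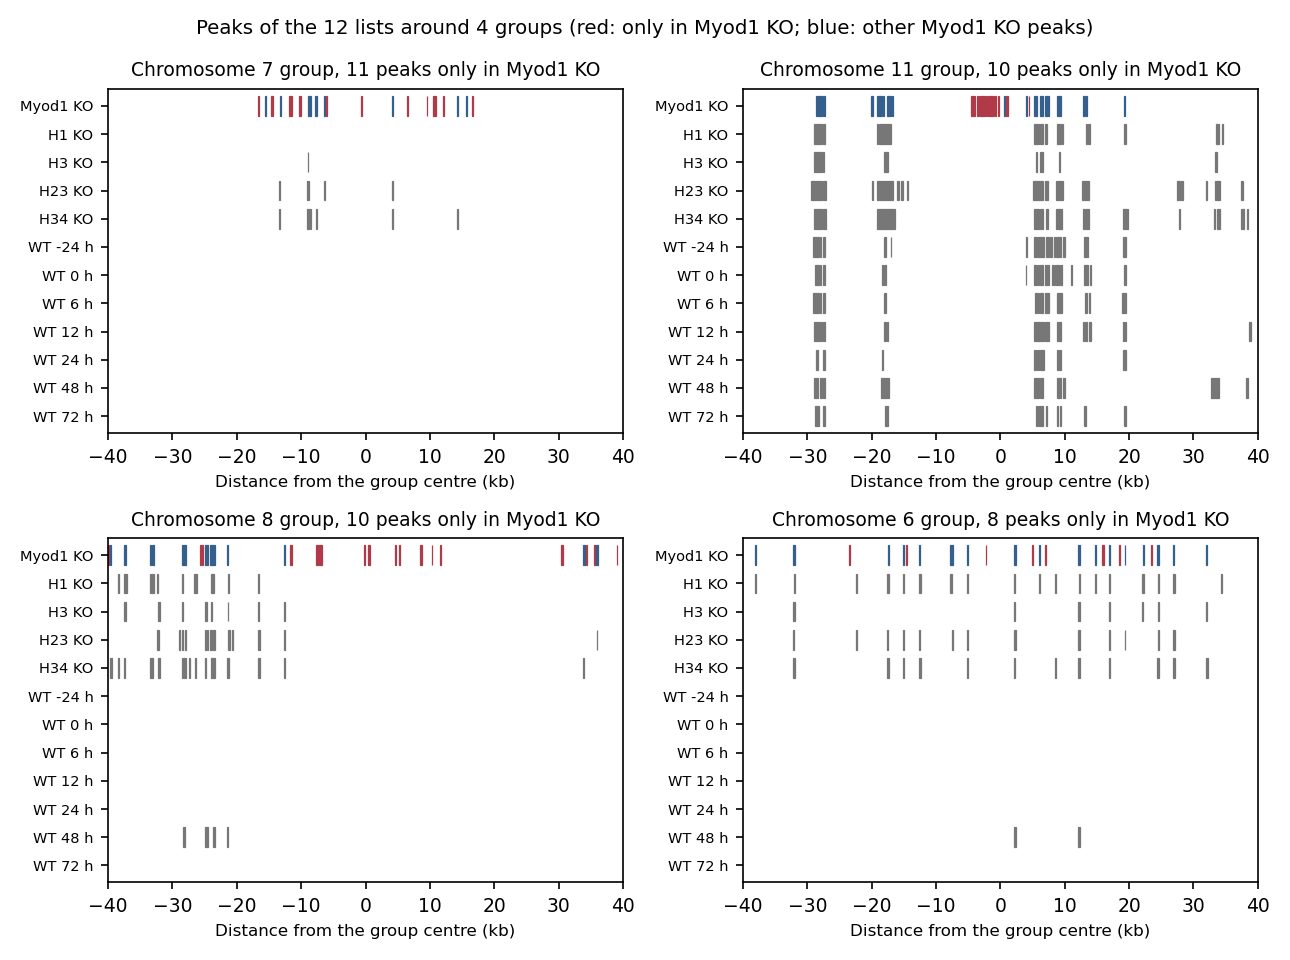
Peaks of the 12 lists within 40 kb on either side of the centres of 4 groups, with 1 row for each library; red bars are members, blue bars other Myod1 knockout peaks, and bar length is peak width. No wild-type list has a peak around the chromosome 7 group, all 12 lists have peaks around the chromosome 11 group, and around the chromosome 6 and 8 groups the hotspot lines and wild type at 48 h have peaks and the 6 other wild-type lists none. The lists at 48 h and those of other times also differ in kind.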

How the data were processed

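Peak lists of 12 of the 13 labelled samples were used. MACS2 2.1.0 and build mm9 are named in the submitters' processing notes; the sources used here give no aligner, control, cutoff or read depth. Lists were per sample. The deposited lists at 48 h held, in the column order MACS2 writes, a score, a fold enrichment (a ratio), −log10 p and −log10 q. The other deposited lists held only positions and a score of no stated unit. All wild-type lists of other times were of this kind, so time and kind of list cannot be told apart. The lowest −log10 p was 4.02 in the knockout, 4.13 in wild type at 48 h and 3.01 to 3.03 in the hotspot lines, so the lists reach to different strengths. Peaks shared a place if they overlapped by 1 base. Distances run from edge to edge, and intervals are 95% Wilson or order-statistic ones. Unless another time is named, distances to wild-type peaks and overlaps with them are those at 48 h. Overlap and distance code was tested on simulated lists. Named regions were the 10 members highest by −log10 p, the 5 widest, the 5 largest groups and the 3 nearest and 3 farthest from wild type, ties included; the chromosome Y members were added after their values were seen. The members and comparisons were chosen with earlier results of these data known. No genome or annotation of mm9 was used here, so no gene is named, no sequence is printed and the planned motif shares were not run. Python 3.11.15, numpy 2.4.6, pandas 2.3.3, scipy 1.17.1 and matplotlib 3.10.9 were used.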

Additional observations from a re-analysis of the deposited data

How the results depend on the processing

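Over 13 results, 73 alternatives were run: 43 were labelled the same and 30 moved. The labels did not rest on a common margin. A median, share or percentile moved when it left the interval of its main value. Numbers of peaks had no interval and were allowed wider changes. Against 1527 members, 1022 were labelled the same when peaks within 1 kb counted as shared. So were 1913 at a −log10 q of at least 2 and 1989 with no threshold. A median width of 132 bp was labelled moved, against 135 bp (133 to 137). The number of members was 520 at a −log10 q of at least 5, 2806 with the other lists cut to the knockout length, 3642 with that cut and no threshold, 4963 without the 4 hotspot lines and 11490 against wild type at 48 h alone; leaving out 1 other library gave 1533 to 1814. The share within 12500 bp of a wild-type peak was 31.9% at −log10 q of at least 5, 45.2% with no threshold and 47.3% when only an overlap of 50% of the shorter peak counted. The median distances were then 32568, 15889 and 14453 bp. Grouped members were 13.6% joined within 5 kb and 5.44% within 1 kb. With the higher threshold, X held 7.12% of members, against 5.7% as reported, and the median width was 143 bp; it was 132 bp with no threshold and 141 bp against lists cut to the knockout length. The median percentiles of −log10 p and fold were 54.2 and 49.6 with the higher threshold and 18.3 and 19 with none. Peaks of one library's own numbered 6853 in H1, 8297 in H23, 5008 in H34 and 2168 in H3 at the higher threshold, and 5070, 6038, 3612, 3542 and, in wild type, 3845 with equal lists. Why these values moved was not tested. Settings without groups of 5 or more, for autosomes only, per Mb, and with equal lists and no threshold were chosen after the data were examined. No paired analysis was possible because each condition had 1 library. Depth was unknown, so what it limits was not tested.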

Other observations

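Of the 191 members off the even steps of fold, 69 lay in a pair of windows that were picked after the values were seen. One spanned 351 kb of chromosome 8 at 19684171 to 20035613 and held 39 members, all off the steps. The knockout had 109 peaks there, the H34 line 94, H1 74, H23 62, H3 40, wild type at 48 h 26 and the 6 other wild-type lists 3 to 5 each. The other spanned 306 kb of chromosome 5 at 14906681 to 15213172 and held 30 members, all off the steps. There the knockout had 41 peaks, H23 8, H34 7, H3 4, H1 2, wild type at 48 h 1, and the 6 other wild-type lists 2 in all, both at 12 h. Together the windows held 69 members, 4.52% of the total and 36.1% of those off the steps. The 6 groups of 5 or more members there held 44 of the 111 members in groups of that size. A smaller window, also picked after the values were seen, spanned 25.8 kb of chromosome 11 at 3056792 to 3082577. It held 6 members, all off the steps, with folds of 2.66 to 4.47. The chromosome 11 member named above among the strongest, with a −log10 p of 17.15, lay in it. By the way MACS2 computes a fold, values off the steps are those set against a local background; the background itself was not among the values used here. No list of repeats, duplications or excluded regions of mm9 was used here, so the part of such sequence in these peaks was not tested.

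Chromosome 12 held a compact stretch of knockout acetylation at 54027870 to 54033315. Its 7 knockout peaks covered 49.4% of 5.45 kb and included 3 members. None of the 7 overlapped a wild-type peak at 48 h, and 3 overlapped a peak in another list. On chromosome 10 at 57686006 to 57702430, 12 knockout peaks formed a stretch with no overlap with a wild-type peak at 48 h. Of these, 2 were members and 10 overlapped a peak in another list. Of the 2976 knockout stretches with at least 5 peaks, 23 had no overlap with a wild-type peak at 48 h, and 12 of these held a member.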
